A study of Elaeis guineensis with 6 samples.

Results

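The B-class floral genes GLO1, GLO2 and DEF1 of oil palm (Elaeis guineensis Jacq.) were followed in early inflorescences of a control tree and of a tree under complete defoliation stress. They were taken by name from the deposited gene table, where GLO2 and DEF1 stand under their symbols and GLO1 under the identifier LOC105037274, and they make up 3 of its 32099 records, with 1 record each. Inflorescences were collected at leaf axil -27 (stage 1), leaf axil -20 (stage 2) and leaf axil +5 (stage 3, not yet emitted), 1 RNA-seq library for each treatment and leaf axil, 6 in all. The control tree received no treatment. In the stress tree, defoliation spared just the spear leaf still closed at the crown's centre. Sampling took place 45 days after the treatment, when the trees were cut. Each treatment is therefore 1 tree, so that effects of defoliation and of the individual tree cannot be told apart, and no leaf axil has a replicate within a treatment. What varies among the 3 libraries of 1 treatment is thus the stage within a single tree.

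In the ABC model of flower development, B-class genes specify petals together with A-class genes and stamens together with C-class genes. They encode MADS-box transcription factors of a DEFICIENS type (APETALA3 in Arabidopsis) and a GLOBOSA type (PISTILLATA in Arabidopsis). In Arabidopsis and Antirrhinum a protein of one type works as a heterodimer with a protein of the other type, and the pair maintains its own transcription. Oil palm bears male and female inflorescences on the same tree in alternating phases, and stamens or their sterile counterparts are among the organs that B-class genes specify. DEF1 of oil palm is also known as the gene whose intron carries the Karma retroelement, the hypomethylation of which goes with the mantled fruit abnormality.

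The libraries were of similar depth. The value of a single fragment in genes with low FPKM (fragments per kilobase of gene, scaled to the mapped fragments) gave depths between 0.949 (control, +5) and 1.19 (stress, -27) relative to the control library at -27. The summed FPKM per library lay between 238672 (stress, +5) and 268805 (control, +5). The labelled tissue was checked against markers of meristems and flowering. KNOX1, a KNOTTED-type homeobox gene of shoot meristems, had an FPKM between 380.5 and 961 in the 6 libraries, and SQUA1, a MADS-box gene of the SQUAMOSA (APETALA1) type, between 4.10 and 150. The other 6 of the 8 genes on this list were at 0 in some or all libraries. AG2, MADS2 and LOC105042148 were listed at 0 in all 6 libraries, AGL2-3 and AGL6-1 in 5, and LOC105057174 in 3. In the control at +5, LOC105057174 had an FPKM of 7.19, AGL6-1 of 2.21 and AGL2-3 of 0.153. For the tests across genes, log2(FPKM + 1) was used over the 18728 records that reached an FPKM of 1 in 3 or more libraries. GLO1 reached it in 6 libraries and GLO2 in 5, while DEF1 reached it in 0 and was not tested.

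GLO1, a GLOBOSA-type gene, was the most abundant of the B-class genes in every library. Its FPKM in the control was 6.84 at leaf axil -27, 8.01 at -20 and 11.2 at +5. Under stress it was 4.59, 6.31 and 9.97 in the same order. The level was thus higher at each later stage in both trees, an order that 1124 of the 18728 tested genes showed, and both libraries at +5 lay above all 4 early libraries, as they did for 14.2% of the tested genes. The control and the stress libraries overlapped. Within a library, between 43.1% (stress, -27) and 70.9% (control, +5) of the tested genes had a lower FPKM than GLO1. From the highest to the lowest, the levels were those of control +5, stress +5, control -20, control -27, stress -20 and stress -27. The residual standard deviation after leaf axil and treatment are accounted for was 0.12 on the log2(FPKM + 1) scale with 2 degrees of freedom. It measures departure from additive effects of leaf axil and treatment. With no replicates, it is not a spread between replicates and cannot decide which libraries differ. The neighbours control -27 and stress -20 were 0.10 apart, and the other neighbours were between 0.15 and 0.39 apart.

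GLO2, the second GLOBOSA-type gene, had lower values and a wider spread. Its FPKM in the control was 3.61 at leaf axil -27, 4.86 at -20 and 7.83 at +5. Under stress it was 2.15, 0.844 and 3.51. All 3 control libraries lay above all 3 stress libraries, though the lowest control value (3.61, at -27) and the highest stress value (3.51, at +5) almost met. Such a separation was seen in 18.2% of the tested genes. The order of the stages differed between the trees, since GLO2 had its lowest stress value at -20 and its lowest control value at -27. Between 4.15% (stress, -20) and 58.2% (control, +5) of the tested genes had a lower FPKM than GLO2. From the highest to the lowest, the levels were those of control +5, control -20, control -27, stress +5, stress -27 and stress -20. The residual standard deviation was 0.40 on the log2(FPKM + 1) scale. Control -20 and control -27 were 0.34 apart, and control -27 and stress +5 were 0.03 apart, both below that value. The other neighbours were between 0.52 and 0.77 apart. For GLO2 too, the value is not a spread between replicates.

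DEF1, the DEFICIENS-type gene, was listed at 0 in 5 of the 6 libraries. The exception was the control library at leaf axil -27, with an FPKM of 0.164, a value at which 5.88% of the values above 0 in that library were lower. In the gene table of RefSeq, the measured genes on either side of DEF1 had values in all libraries. LOC105033330 had an FPKM between 3.46 and 5.77, and LOC105033335 between 0.746 and 15.9. Counts were not used here, so no upper limit can be set for a gene listed at 0. FPKM values do not show whether reads of DEF1 were lost before quantification, which was not tested, so its values and the ratios to it describe what is listed.

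**Figure D1:**
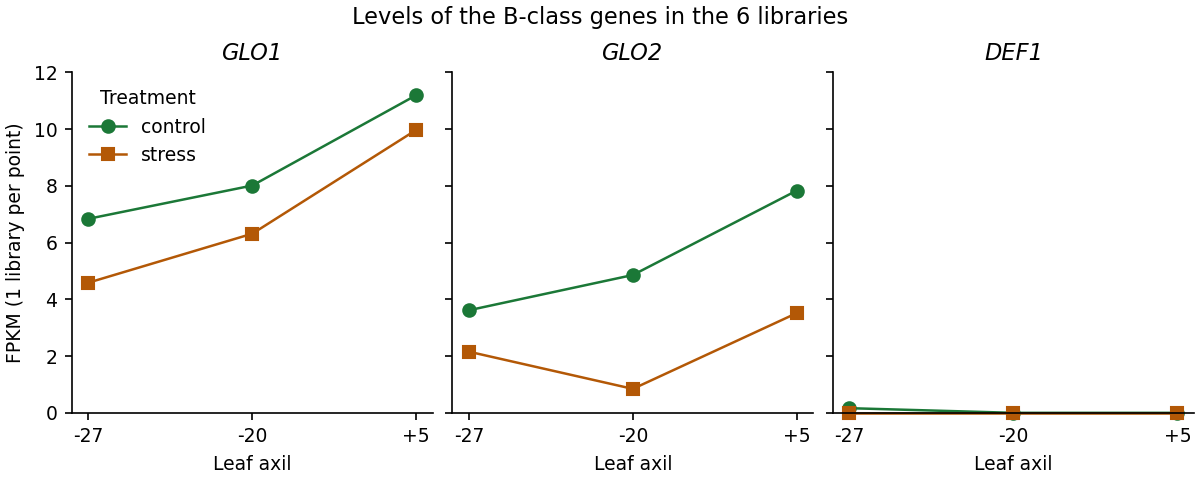
FPKM (y axis) of GLO1, GLO2 and DEF1 at leaf axils -27, -20 and +5 (x axis) in the control and the stress tree, with 1 library per point and hence no error bars. GLO1 lies between 4.59 and 11.2, GLO2 between 0.844 and 7.83, and DEF1 at 0 in all libraries except control -27, where it has 0.164.

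The GLOBOSA-type genes were set against DEF1, their partner type, on the FPKM scale, which takes gene length into account. The summed FPKM of GLO1 and GLO2 in the control tree was 10.5 at -27, 12.9 at -20 and 19.0 at +5. In the stress tree it was 6.74, 7.16 and 13.5. DEF1 was at or near 0 beside each of these sums. A ratio of measured values existed only in the control library at -27, where the FPKM of GLO1 was 41.7 times and that of GLO2 22.1 times that of DEF1. In the other 5 libraries a ratio to DEF1 has no measured denominator, and on the log2(FPKM + 1) scale it equals the level of the GLOBOSA-type gene itself. The log2 ratio of GLO1 to DEF1 was 3.18 ± 0.43 in the control and 2.94 ± 0.49 under stress (SD, n = 3 leaf axils of 1 tree). The difference was -0.24 (two-sided exact permutation test, p = 0.6). It was -0.014 without stress -27, -0.026 without control +5 and -0.50 without stress +5. The log2 ratio of GLO2 to DEF1 was 2.56 ± 0.58 and 1.57 ± 0.65, a difference of -0.99 (two-sided exact permutation test, p = 0.2), and of -0.64 without stress -20. With 3 libraries against 3 this exact test cannot go below p = 0.1. Between +5 and the early leaf axils the log2 ratio differed by 0.71 for GLO1 to DEF1 (p = 0.0667, the smallest that 2 libraries against 4 allow) and by 0.89 for GLO2 to DEF1 (p = 0.267, both two-sided exact permutation tests). The GLO2 value was 0.41 without control +5, 0.59 without stress -20, 1.37 without stress +5 and 1.45 with a pseudocount of 0.1. These values follow the GLOBOSA-type genes and say nothing of a change in DEF1.

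Defoliation was compared with the control for each gene, the comparison for which the libraries were made. GLO1 and GLO2 both had a lower FPKM under stress at all 3 leaf axils, as 30.3% of the tested genes did. For GLO1 the difference between the group means of log2(FPKM + 1), stress minus control, was -0.31 (standard error 0.28, 95% confidence interval -0.98 to 0.36, adjusted p = 0.558, from limma, Benjamini-Hochberg over all tested genes). For GLO2 it was -1.06 (standard error 0.38, 95% confidence interval -1.95 to -0.17, adjusted p = 0.161 from limma). Neither gene was past the threshold of an adjusted p under 0.01 and a fold change of at least 2. That threshold was passed by 0.529% of the tested genes (99 genes, and 32 in a fit with leaf axil as a block). An unadjusted p under 0.05 in limma was reached by GLO2 alone of the pair (0.0254) and by 22.4% of all tested genes. In the fit with leaf axil as a block, limma gave an adjusted p of 0.246 to GLO1 and 0.0721 to GLO2. The GLO2 difference rests in part on the stress library at leaf axil -20: without it the log2 difference was -0.72 (adjusted p = 0.382 from limma). The GLO1 difference was -0.09 without the stress library at -27, -0.13 without the control library at +5, and -0.57 without the stress library at +5. The median of the tested genes was lower under stress at each leaf axil. With the libraries centred on their medians, the difference was -0.22 for GLO1 and -0.97 for GLO2.

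The size of the difference varied between leaf axils, where each comparison has 1 library per treatment and hence no test. For GLO1 the log2(FPKM + 1) value was lower under stress by 0.49 at -27, by 0.30 at -20 and by 0.15 at +5, written as stress minus control -0.49, -0.30 and -0.15. The median over all tested genes was -0.03, -0.06 and -0.11, so that at +5 GLO1 lay close to the middle of all genes, with 47.1% of them below it. For GLO2 the values were -0.55, -1.67 and -0.97. GLO2 was the member past a fold change of 2 on this scale, at -20 alone. There 4.89% of the tested genes were at least 2-fold lower and 1.28% had a lower value than GLO2. At +5 it stayed just under that size, while 10.3% of the tested genes passed, and at -27, where 4.07% passed, 13.5% of the tested genes had a lower value. In FPKM itself, GLO2 of the control was 5.75 times that of stress at -20, 2.23 times at +5 and 1.68 times at -27, and GLO1 1.27, 1.12 and 1.49 times. Centring the libraries on their medians, which moves the median of all genes by 0.14 at +5, brought the GLO1 difference at +5 to -0.0077 and that of GLO2 to -0.82.

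**Figure D2:**
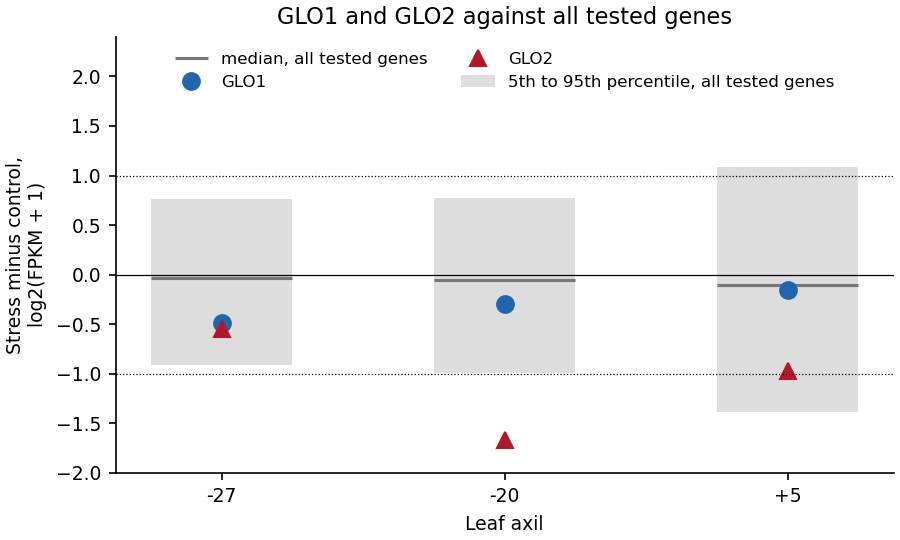
Difference between the stress and the control library in log2(FPKM + 1) (y axis) at each leaf axil (x axis) for GLO1 (circles) and GLO2 (triangles), 1 library per treatment. Grey bars span the 5th to the 95th percentile of the 18728 tested genes, grey lines are their medians, and dotted lines mark a fold change of 2. GLO2 at -20 (-1.67) lies below the bar, and the other 5 points lie within the bars.

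Leaf axil +5 was compared with the early leaf axils -27 and -20, with the treatment as a covariate. Both GLOBOSA-type genes had their highest value of each tree at +5, as 23.3% of the tested genes did, and 7.86% combined this with a lower value under stress at all leaf axils. For GLO1 log2(FPKM + 1) was higher at +5 by 0.66 (standard error 0.17, 95% confidence interval 0.26 to 1.06, adjusted p = 0.0635 from limma). For GLO2 the difference was 0.83 (standard error 0.25, 95% confidence interval 0.25 to 1.42, adjusted p = 0.0904 from limma). Neither passed the threshold, which 1.45% of the tested genes passed. Genes that reached an FPKM of 1 only at +5 are not among the tested genes. Both had an unadjusted p under 0.05 in limma (0.00608 for GLO1 and 0.0124 for GLO2), as 25.5% of the tested genes did. In FPKM, GLO1 at +5 was 1.64 times its level at -27 in the control and 2.17 times under stress. GLO2 at +5 was 2.17 times its level at -27 in the control and 1.63 times under stress. Against -20 the ratios were 1.40 and 1.58 for GLO1 and 1.61 and 4.16 for GLO2, the last of them against the lowest GLO2 value of all libraries. Between the early stages, GLO1 at -20 was 1.17 times its level at -27 in the control and 1.38 times under stress, and GLO2 was 1.34 times and 0.392 times.

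Whether the effect of defoliation differed between +5 and the early leaf axils was tested as a difference of differences, with 1 library per treatment at +5. It was 0.24 for GLO1 (standard error 0.30, 95% confidence interval -0.47 to 0.95, adjusted p = 0.671 from limma) and 0.14 for GLO2 (standard error 0.48, 95% confidence interval -0.98 to 1.26, adjusted p = 0.889 from limma). Of the 2 genes 0 passed the threshold and 0 had an unadjusted p under 0.05, against 0.491% and 24.3% of the tested genes in limma. The interval for GLO2 reaches from -0.98 to 1.26 on the log2 scale, so a difference of nearly 2-fold in either direction lies within it. With 1 library per treatment at +5, the gene's own residual comes from the early leaf axils alone. The interval thus holds no variation between libraries at +5. For GLO1 the value was 0.05 without stress -27, 0.14 without control -20 and 0.44 without stress -20.

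The balance between the GLOBOSA-type genes was described by the share of GLO1 in their summed FPKM. In the control the share was 65.4% at leaf axil -27, 62.3% at -20 and 58.8% at +5. Under stress it was 68.0%, 88.2% and 73.9%. All 3 stress libraries lay above all 3 control libraries. The margin was narrow at -27 and widest at -20, where GLO2 was at its lowest. GLO2 by itself had all 3 control libraries above all 3 stress libraries, as 18.2% of the tested genes did. How often the ratio of other gene pairs separates the treatments was not computed. The log2 ratio of GLO1 to GLO2, from FPKM + 1, was 0.62 ± 0.15 in the control and 1.36 ± 0.59 under stress (SD, n = 3 leaf axils of 1 tree). The difference was 0.75 (two-sided exact permutation test, p = 0.1, the smallest that 3 libraries against 3 allow). With permutation within leaf axils the exact p was 0.25, also the smallest possible. Without the stress library at -20 the difference was 0.44. Between +5 and the early leaf axils the log2 ratio differed by -0.18 (two-sided exact permutation test, p = 0.8), and it was above 0 without the control library at +5 (0.23) and without the stress library at -20 (0.14). In all, 6 such comparisons were made by exact permutation, of 3 ratios by treatment and by leaf axil, and the design lets none of them fall under 0.05. GLO1 and GLO2 are paralogs, and reads shared between them were not examined.

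**Figure D3:**
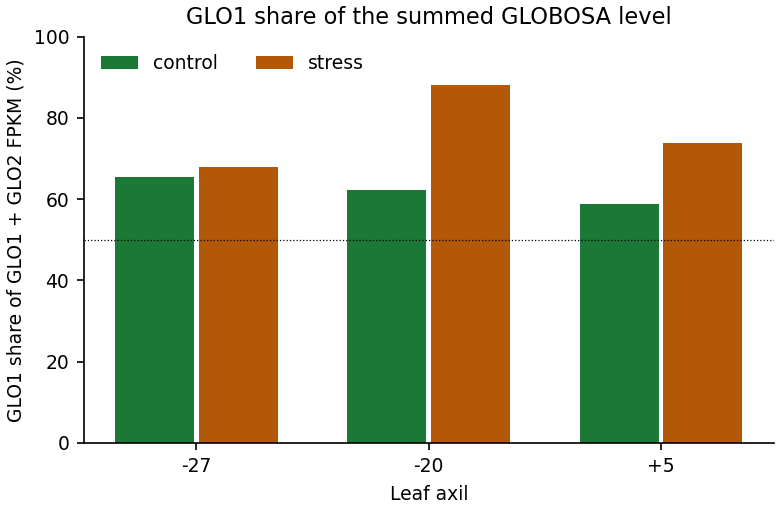
Share of GLO1 in the summed FPKM of GLO1 and GLO2 (y axis, percent) at each leaf axil (x axis) in the control and the stress tree, 1 library per bar and hence no error bars. The dotted line marks equal levels. The control bars lie between 58.8% and 65.4% and the stress bars between 68.0% and 88.2%.

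B-class proteins act in complexes with other MADS-box proteins, among them those of the SEPALLATA (AGL2) type. By symbol or synonym, 10 records of the table are MADS-box genes, 7 of them other than the B-class genes, and 1 of the 7, SQUA1, was tested. SQUA1 of the control tree had an FPKM of 5.59 at leaf axil -27, 6.78 at -20 and 124 at +5. Its values in the stress tree were 4.10, 8.43 and 150. It was higher at +5 by 4.29 on the log2(FPKM + 1) scale (standard error 0.25, adjusted p = 0.00201 from limma). Of the 3 tested genes of the list, SQUA1 alone passed the threshold in any of the 3 limma tests. It did so only for +5 against the early leaf axils. Its adjusted p from limma was 0.985 between control and stress and 0.723 for the difference of the treatment effect. For +5, the adjusted p of SQUA1 from limma was 0.0140 without control -27, 0.0177 without control -20 and 0.0109 without stress -20. Without the filter on low values it was 0.0367. The log2 difference was at least 4.08 in each fit that left out a library. At the early leaf axils GLO1 (4.59 to 8.01) lay in the range of SQUA1, and at +5 both GLO1 and GLO2 lay far below it. AGL2-5 (LOC105057174), of the SEPALLATA type, had an FPKM of 7.19 in the control and 1.95 under stress at +5, 0.252 under stress at -27, and was listed at 0 in the other 3 libraries. The filter asked for an FPKM of 1 in 3 or more libraries, so a gene that reached it only at +5, as AGL2-5 did, was not tested. AGL6-1 had 2.21 and AGL2-3 had 0.153 in the control at +5, and each was listed at 0 in the other 5 libraries. MADS2 (AGL2-1), AGL2-2 (LOC105042148) and AG2, which is of the AGAMOUS type and thus of the class that acts with B-class genes in stamens, were listed at 0 in all 6 libraries. DEF1 therefore stood with 6 of the other 7 genes among those that did not reach an FPKM of 1 in 3 libraries. Of those with a value, DEF1 alone had its highest at leaf axil -27. That was its single value above 0 (0.164, in the control), so it shows no course over the leaf axils. KNOX1, outside the MADS-box family, had an FPKM of 847 at -27, 480 at -20 and 380.5 at +5 in the control tree, and its stress values were 961, 914 and 928. The values of this meristem gene were thus higher under stress at each leaf axil, where those of GLO1 and GLO2 were lower (adjusted p = 0.293 for KNOX1, from limma). The share of tested genes higher under stress at every leaf axil was not computed. Fewer cells of a type and less RNA of a gene per cell cannot be told apart in such libraries, and the part of the tissue makeup in the GLO1 and GLO2 values was not tested.

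**Figure D4:**
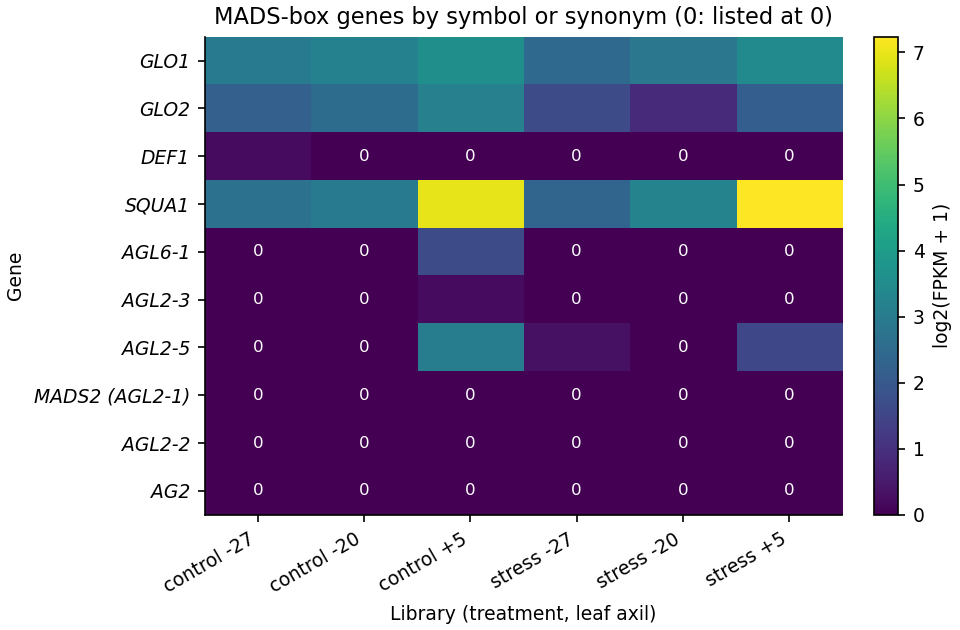
Level of the 10 MADS-box genes found by symbol or synonym (rows) in the 6 libraries (columns), with colour giving log2(FPKM + 1) and a printed 0 marking values listed at 0. GLO1 and GLO2 have values in all libraries, DEF1 has one only in control -27 (FPKM 0.164), and SQUA1 is highest at +5 (124 and 150).

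The genes whose profile over the 6 libraries was most like that of a member were found by the root mean square difference of log2(FPKM + 1), each gene centred on its own mean. For GLO1 they were LOC105059353 (0.05), LOC105036423 (0.05) and LOC105060258 (0.08), with a Pearson's r of 0.993, 0.990 and 0.988 over the 6 libraries. LOC105059353 ran from an FPKM of 10.1 (stress, -27) to 23.7 (control, +5) in the same order of libraries as GLO1. For GLO2 the nearest were LOC105050758 (0.10), LOC105050392 (0.16) and LOC105049789 (0.17), with r of 0.989, 0.974 and 0.972. LOC105050758 had, like GLO2, its lowest FPKM under stress at -20 (6.41) and its highest in the control at +5 (34.6). With 18728 genes and 6 libraries from 2 trees, close profiles are found for many genes, and these are given as a description. The profiles of GLO1 and GLO2 were farther apart (0.51, r = 0.712 over the 6 libraries). Of the 3 tested MADS-box genes, GLO2 was nearer to GLO1 by this difference than SQUA1 was (1.73). By Pearson's r, SQUA1 was closer to GLO1 (0.863 over the 6 libraries) than GLO2 was. By the root mean square difference, 1832 of the tested genes were nearer to GLO2 than GLO1 was, and 11903 were nearer to GLO1 than GLO2 was.

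**Figure D5:**
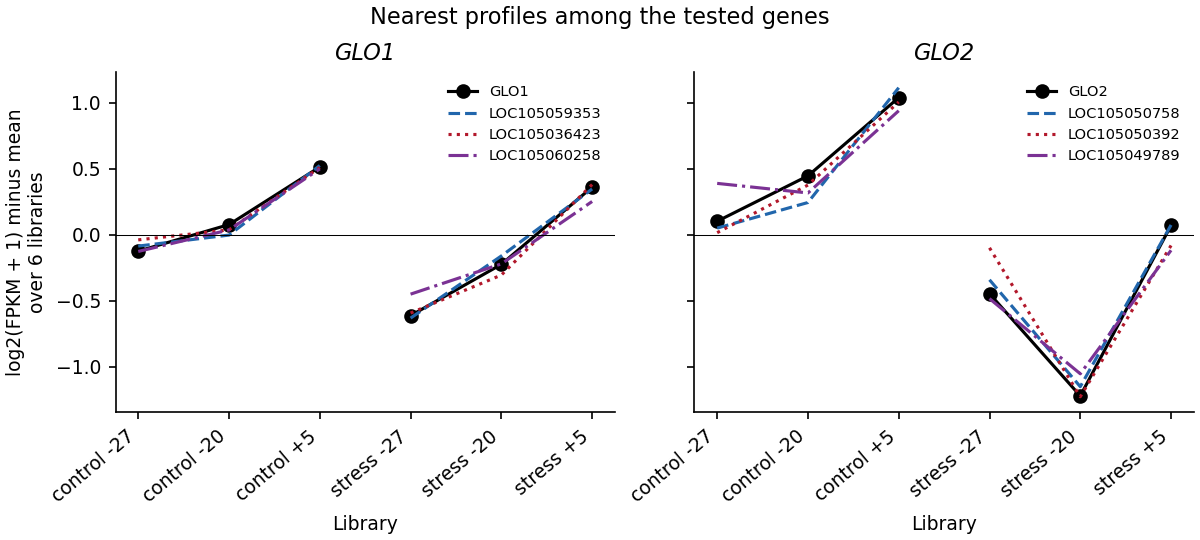
Profiles of GLO1 (left) and GLO2 (right), black, and of the 3 tested genes nearest to each, as log2(FPKM + 1) minus the gene's mean over the 6 libraries (y axis), by library (x axis), 1 library per point. The GLO1 profile climbs with the stage in both trees, and that of GLO2 has its minimum under stress at -20 (FPKM 0.844).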

How the data were processed

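RNA was sequenced from inflorescences at 3 leaf axils of 1 control and 1 defoliated tree, 6 libraries. The authors checked reads with FastQC, left them untrimmed, aligned them with HISAT2 2.1.0 to an oil palm reference and estimated gene abundance with StringTie 1.3.4. The deposited FPKM values are scaled for gene length and mapped fragments and were not filtered. Counts, which the authors tested with DESeq2 1.18.1, were not used here, so intervals from counting error were not computed.

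From the FPKM values, log2(FPKM + 1) of the 18728 records that reached an FPKM of 1 in 3 or more libraries was fitted with limma 3.58.1 (R 4.3.3, eBayes with trend). A gene was called at a Benjamini-Hochberg adjusted p under 0.01 and a fold change of at least 2, the criteria of the authors. Ratios were compared by exact permutation in Python 3.11.15 (numpy 2.4.6, pandas 2.3.3). Figures were drawn with matplotlib 3.10.9. The fits were also run on simulated data with independent libraries. Stages of a single tree are not independent in that way, so that run does not test the p-values given here. The members and gene lists were chosen with earlier results of these data known. Named genes were the members, the 3 nearest profiles to each tested member, and the MADS-box and meristem genes found by symbol or synonym. No protein table was at hand, so the MADS-box list rests on names alone, relatives of the B-class proteins were not searched, and no sequence is shown. Names and gene order came from a RefSeq table for EG11, which is newer than the assembly used for alignment and which matched 28655 records (89.3%) by symbol.

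Leaf axils pair the libraries of the trees. The deviations of the paired libraries from their treatment means had r = 0.211 at -27, 0.344 at -20 and 0.409 at +5 over the tested genes, which are no replicates of each other. The fits were repeated with a pseudocount of 0.1, without the filter, over genes with a mean FPKM from 5 upwards, and after median centring or quantile normalization. They were also repeated without the variance trend or the treatment term, with leaf axil as a block, and without each library in turn.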

Additional observations from a re-analysis of the deposited data

How the results depend on the processing

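GLO1 and GLO2 stayed below the threshold in all 69 alternative fits of the 3 limma tests, and the direction held in 67 of them. The exceptions were the difference of the treatment effect for GLO2 without the control library at -20 (-0.03) and without the stress library at -20 (-0.25), within a range of -0.25 to 0.53 over the libraries left out (0.05 to 0.44 for GLO1). The adjusted p from limma between control and stress ranged from 0.246 to 0.899 for GLO1 and from 0.0721, with leaf axil as a block, to 0.382 for GLO2. Between +5 and the early leaf axils the adjusted p from limma ranged from 0.0572 to 0.218 for GLO1 and from 0.0780 to 0.487 for GLO2. With a mean FPKM of at least 5, GLO2 was not among the genes kept. With 1 library left out, the log2 difference between stress and control ranged from -0.57 to -0.09 for GLO1 and from -1.36 to -0.72 for GLO2, and that between +5 and the early leaf axils from 0.54 to 0.78 and from 0.66 to 0.99.

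Of 48 alternatives for the ratios, 3 changed sign. The ratio of GLO1 to DEF1 between stress and control became 0.11 with a pseudocount of 0.1, under which the single DEF1 value weighs more, and that of GLO1 to GLO2 between +5 and the early leaf axils ranged from -0.58 to 0.23 with 1 library left out. At single leaf axils, the GLO2 difference at -20 became -2.39 with a pseudocount of 0.1. That at +5 became -1.13 with this pseudocount, past a fold change of 2, and 11.6% of the tested genes had a lower value. The GLO1 difference at +5 became -0.023 after quantile normalization and -0.0077 after centring on medians.

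The number of all genes past the threshold moved more. Between control and stress it was 99, and it was 7 with no filter, 32 with a mean FPKM of at least 5 and 32 with leaf axil as a block, and 0 to 89 with 1 library left out. For +5 it was 272, and it was 1 with no filter, 171 with a mean FPKM of at least 5, 3 with no treatment term and 0 to 1204 with 1 library left out. For the difference of the treatment effect it was 92, and it was 31 after centring, 0 with no variance trend and 0 to 10 with 1 early library left out. Where no gene passed, between 2814 and 4353 had an unadjusted p under 0.05 in limma. The cause was not tested. Leaving out a library at +5 gave no fit of the difference of the treatment effect.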

Other observations

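The measured genes that adjoin the B-class genes in the RefSeq gene table are given as values. Beside GLO1, LOC105037258 had an FPKM of 6.01, 5.36 and 4.63 in the control tree at -27, -20 and +5, and of 6.76, 6.98 and 6.49 in the stress tree, thus higher under stress at each leaf axil, and LOC105037292 stayed between 0 and 0.435. Beside GLO2, LOC105032560 had 4.60, 5.11 and 5.95 in the control tree and 5.18, 3.15 and 2.72 in the stress tree, so that it was, like GLO2, lower under stress at -20 and +5 but, unlike GLO2, higher at -27, and LOC105032556 was listed at 0 in 5 libraries and had 0.174 under stress at +5. Beside DEF1, LOC105033335 had 7.84, 14.9 and 0.746 in the control tree and 15.9, 12.3 and 1.53 in the stress tree, with its lowest value of each tree at +5, where GLO1 and GLO2 had their highest.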
